A study of Mus musculus with 13 samples.

Results

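Oxidative phosphorylation genes encode the subunits of the respiratory chain and of ATP synthase. Here they are the genes whose symbols start with Nduf, Uqcr or Atp5, the Cox4 to Cox8 genes with their suffixes, and Sdha to Sdhd, taken only from probe sets whose platform annotation names a single gene. The rule found 90 of the 18193 genes on the array, represented by 179 of 34945 single-gene probe sets. Of the 90, 82 are structural subunits or their paralogues and 8 are Ndufaf genes, which encode factors that help to build complex I. The 82 comprise 36 genes of complex I, 4 of complex II, 8 of complex III, 17 of complex IV and 17 of complex V, assigned by symbol. Ndufa4, whose product is now known as a subunit of complex IV, and its paralogue Ndufa4l2 are thus counted with complex I. Another 10 probe sets carry a member's name together with that of a second gene and entered no member value.

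Complexes I to IV, in the inner mitochondrial membrane, pass electrons from NADH and succinate to oxygen; complexes I, III and IV pump protons as they do so, complex II does not, and complex V, the ATP synthase, uses the proton gradient to make ATP. Most subunits are encoded in the nucleus and imported, a few core ones are encoded by mitochondrial DNA, and assembly factors join the parts without staying in the finished complex. Muscle is rich in these complexes, and some subunits of complex IV have a separate isoform in heart and skeletal muscle.

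The cells were C2C12, an established line of mouse skeletal muscle precursors (myoblasts). Flasks were grown in parallel to 90% confluence in medium with 5% fetal bovine serum, kept for 24 h in 0.2% serum, and given serum again. The study sought oscillating genes in connection with the formation of somites, the segments of the embryo that give rise to muscle. Of a collection every 0.5 h for 8 h, the 13 arrays from 0 to 6.0 h were analysed here, with 1 Affymetrix mouse array per time point. The 0 h sample is the end of the low-serum period. By their labels, all the later samples differ from it in their hours after serum was returned. Each is also a separate array, and no flask kept in low serum was sampled alongside them. No transgene or drug was used. All cells are of 1 line, so the values describe that line.

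Samples were grouped by labelled time into 0 h (1 array), early (0.5 to 2.0 h), middle (2.5 to 4.0 h) and late (4.5 to 6.0 h), with 4 arrays in each of the last 3. A window holds different time points and no replicates of one, so its spread mixes change over time with technical variation. The p-values measure a difference against that spread, and the lone 0 h array was assumed to vary like the others. Values are log2 of the deposited ratio of a probe set to a reference of its own, averaged over the probe sets of a gene. A log2 ratio of 0 equals that reference, and levels of different genes cannot be compared. A gene was called where the Benjamini-Hochberg adjusted p over all 18193 genes, from limma, was under 0.05. Fewer cells and less RNA per cell cannot be told apart in such bulk samples.

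Across all probe sets, the array medians lay between 0.977 and 1 on the ratio scale. Over gene values they lay between -0.05 (at 2.5 h) and 0 on the log2 scale. The spread over genes lay between 0.16 and 0.29 (SD, log2). The difference between 3′ and 5′ probe sets of Actb and Gapdh stayed between -0.08 and 0.04 on the log2 scale. The 5′ control for 18S ribosomal RNA was less even, at a ratio of 0.397 to 5.24, with 3 of its 4 highest values in the late window (3.92, 2.67 and 5.24 at 5.0, 5.5 and 6.0 h). Its part in the late values below was not tested. Ratios carry no level, so whether the defining myoblast genes were expressed could not be checked, only how they changed. None of 7 myoblast markers was called between late and early, a comparison that called 11.7% of all genes higher and 9.29% lower. Of 8 markers of differentiated muscle, 6 were negative between early and 0 h (median -0.13, log2), against 10391 of all 18193 genes (median -0.03). Late minus early, 7 of these 8 were called higher (median 0.33), among them Myog and Acta1. Of 4 fibroblast markers, Col1a1 was called lower (-0.35 ± 0.10, SE), and none of 4 measured blood and endothelial markers was called.

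The assembly factor Ndufaf4 changed most of all members, and its promoter is shown first for that reason, with 3 subunit promoters that contain the same motif letters and whose genes differed little between windows. The capitals mark the palindromic letters bound by NRF1, a factor known for its sites at respiratory genes. Sequences are from RefSeq on GRCm38.p6, read 5′ to 3′ on the gene's strand. The Ndufaf4 stretch is the 250 bases before its start (chr4:24897833-24898082, plus strand), and the others are 60 bases around the motif from Atp5g2 (chr15:102671055-102671114, minus strand), Atp5k (chr5:108434415-108434474, minus strand) and Cox6a1 (chr5:115349086-115349145, minus strand).
Ndufaf4: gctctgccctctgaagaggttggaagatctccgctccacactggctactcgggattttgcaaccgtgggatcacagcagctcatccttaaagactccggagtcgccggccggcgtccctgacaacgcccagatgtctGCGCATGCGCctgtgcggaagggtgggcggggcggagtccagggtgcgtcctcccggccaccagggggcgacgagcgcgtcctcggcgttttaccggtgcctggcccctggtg
Atp5g2: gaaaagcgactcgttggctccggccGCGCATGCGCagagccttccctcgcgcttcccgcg
Atp5k: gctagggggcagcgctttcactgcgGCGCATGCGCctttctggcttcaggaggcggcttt
Cox6a1: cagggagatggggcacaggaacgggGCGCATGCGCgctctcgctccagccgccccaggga

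Promoters, 250 bases before to 50 after each start, were matched for 74 of the 90 genes. Searched on both strands, the NRF1 letters in capitals above were present in 4 of 67 structural genes (5.97%) and 2 of 7 assembly factors (28.6%, Ndufaf4 and Ndufaf5), against 1.07% of all 27025 genes with a promoter and 1.75% of those on the array. The 4 structural genes were Atp5g2, Atp5k, Cox6a1 and Uqcrc1. With the T of these letters replaced by any base, a search that includes the exact letters, the count was 15 of 67 structural genes (22.4%), against 5.19% of all genes and 8.63% of those on the array. The other letters searched were CCGGAAGT, bound by ETS factors such as GABP (5 of 67, 7.46%, against 4.31% of all genes and 6.65% of those on the array), TCAAGGTCA, bound by ESRRA (2 of 67, 2.99%, against 0.466% and 0.404%), and AAGATGGCG, bound by YY1 (6 of 67, 8.96%, against 1.64% and 2.54%). These matches are letters in a window and not measured sites.

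Late minus early was set beside the letters for the structural genes, as a description with no test. It had a median of 0.02 (log2) over the 4 genes with the exact NRF1 letters, none of them called, and 0.07 over the 63 without them, 6 of them called. With 1 base left free the medians were 0.07 over 15 genes and 0.07 over 52. They were 0.07 with the ETS letters (5 genes) and 0.07 without, 0.13 with the ESRRA letters (2 genes) and 0.06 without, and 0.03 with the YY1 letters (6 genes) and 0.07 without. Of the genes whose sequence is printed, Atp5g2 differed by -0.05 ± 0.05 (SE) between late and early and Cox6a1 by -0.02 ± 0.06, while Ndufaf4 differed by 0.95 ± 0.12. The probe sets of Atp5k gave 0.04, 0.05 and 0.10.

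**Figure D1:**
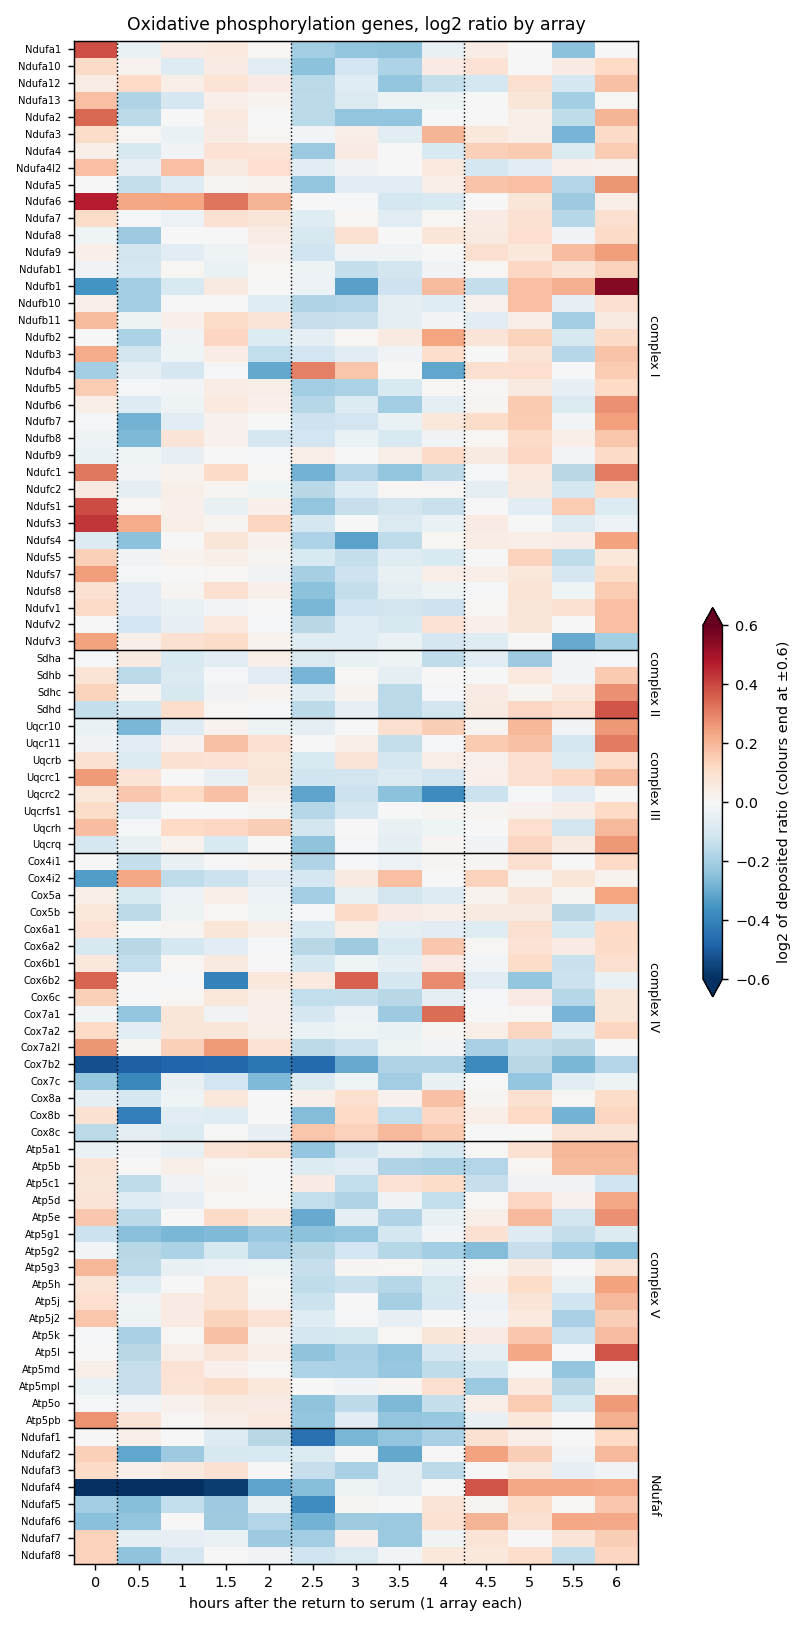
Log2 ratio of each oxidative phosphorylation gene (one line of cells per gene, grouped by complex) on each of the 13 arrays, by hours after serum. Most subunits sit close to 0 throughout, and Ndufaf4 runs from -1.06 at 0 h to 0.38 at 4.5 h. The 2.5 h array is low for most subunits (6 of 82 structural genes above 0), and it is low over all genes too (5784 of 18193).

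Most structural subunits differed little between windows. Between early and 0 h, 72 of 82 (87.8%) differed by less than 1.2-fold, against 81.2% of all genes. Between late and early, 81 of 82 (98.8%) differed by less than 1.2-fold, against 82.9% of all genes, and between middle and early 80 of 82 (97.6%), against 83.8%. Their median log2 ratio was 0.07 at 0 h and -0.07 at 0.5 h. It was 0.02 at 2.0 h, -0.14 at 2.5 h and 0.12 at 6.0 h, the highest of the series. At 2.5 h 6 of the 82 genes lay above 0, at 5.5 h 23, and at 6.0 h 68. Of all 18193 genes, 5784, 8386 and 9074 lay above 0 on these arrays. The median over all genes was also lowest at 2.5 h, at -0.05. Over the 13 arrays a subunit's correlation with the median of the other subunits had a median r of 0.69, and 76 of 82 were positive, from -0.50 (Cox8c) to 0.98 (Atp5e, a small subunit of ATP synthase). All these points come from the same 13 libraries, so an array that is low for many genes can raise r for those genes together.

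Early minus 0 h asks what the first hours of serum changed. Of the 90 members 1 was called (1.11%), against 3.26% of all genes (1.81% called lower). The fibroblast marker Pdgfra was also called lower in this comparison (-0.42 ± 0.10, adjusted p = 0.0361), and its part in the members' values was not tested. The member called was Ndufs1, the largest iron-sulphur subunit of the core of complex I, which stood at 0.39 at 0 h and at 0.01, 0.03, -0.04 and 0.03 on the 4 early arrays. All 4 lay below the single 0 h value, a fall of 0.38 ± 0.09 (SE, log2; adjusted p = 0.0402). The call ended when any of the arrays at 1.0, 1.5, 2.0, 3.5, 4.5 or 5.0 h was left out, each of which left 0 members called, and when values were quantile normalized. Leaving out 0.5 h gave 2.

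Ndufs3, another core subunit of complex I, differed by -0.33 ± 0.09 (adjusted p = 0.0618) and Ndufa2, an accessory subunit, by -0.37 ± 0.12 (adjusted p = 0.115). The subunit medians were negative in each complex, at -0.09 in I, -0.08 in II, -0.05 in III, -0.06 in IV and -0.08 in V. In all, 63 of 82 structural genes were negative, against 10391 of all 18193 genes, with a median of -0.07 against -0.03 over all genes. After quantile normalization these medians were closer, at -0.03 and -0.02. Over the 20 other settings run, the structural median lay between -0.10 and -0.03. All 4 early arrays lay below 0 h for 46 of the 82, against 34.7% of all genes, and above it for 6, against 22.3%. Such counts compare 4 arrays with 1. The probe sets of a gene often differed here: of 51 members with several, 26 had all of them on the same side of 0.

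Middle minus early asks whether the genes had moved by the middle window. Of the 90 members 12 were called (13.3%), against 22.2% of all genes. Of the 12, 10 were lower and 2 higher, against 14.4% and 7.74% of all genes. The structural genes gave 1 higher and 8 lower, with a median of -0.06 against -0.0009 for all genes. Of the 82, 59 were negative, against 9139 of all 18193 genes. Medians were -0.08 in complex I, -0.05 in II, -0.07 in III, 0.03 in IV and -0.14 in V, where 14 of 17 genes were negative. All 4 middle arrays lay below all 4 early ones for 19 of 82 structural genes, against 15.0% of all genes, and above them for 2, against 8.03%. The split of calls moved with scaling: 2 higher and 5 lower after quantile normalization, and 3 and 8 with each array centred on its median. Leaving out the 1.0 h or the 1.5 h array gave 6 called members in place of 12. The myoblast marker Myf5 was called lower in the same comparison (-0.60 ± 0.12, adjusted p = 0.00421), 1 of 7 such markers, and its part in these falls was not tested.

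The largest fall was that of Uqcrc2, a core protein of complex III. It stood at 0.16, 0.12, 0.17 and 0.04 on the early arrays and at -0.32, -0.13, -0.24 and -0.38 on the middle ones, with no overlap. It fell by 0.39 ± 0.06 (SE; adjusted p = 8.37e-04, 1.31-fold). Its 2 probe sets both fell, by 0.19 and 0.59. In the late window it lay between, at -0.13, -0.01, -0.07 and 0.0021, and late minus early was -0.17 ± 0.06 (adjusted p = 0.0594). Uqcrc1, its partner core protein, differed by -0.13 ± 0.05 between middle and early (adjusted p = 0.077).

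In complex I, Ndufa6, an accessory subunit of the LYR family, stood at 0.23, 0.24, 0.32 and 0.21 early and at 0, -0.01, -0.11 and -0.09 in the middle window. It fell by 0.30 ± 0.06 (adjusted p = 0.00504), and its 0 h value of 0.47 was the highest of all. The accessory subunits Ndufa12 (adjusted p = 0.0275), Ndufc1 (adjusted p = 0.0444) and Ndufa1 (adjusted p = 0.0471) fell by 0.22, 0.24 and 0.20. The last 2 sat near the threshold: Ndufc1 lost its call in 14 of 21 other settings and Ndufa1 in 13 of 20. The 2 Ndufc1 probe sets gave -0.07 and -0.41.

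In complex V, the peripheral stalk subunit Atp5pb stood at 0.08, 0.0049, 0.04 and 0.06 early and at -0.23, -0.07, -0.24 and -0.23 in the middle window. The groups did not overlap, and it fell by 0.24 ± 0.06 (adjusted p = 0.0159). By 6.0 h it had a value of 0.21. Atp5o, the stalk subunit that confers oligomycin sensitivity, fell by 0.23 ± 0.07 (adjusted p = 0.0257), though its 2 probe sets differed, at -0.03 and -0.44.

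In complex IV, Cox7a2l fell by 0.21 ± 0.06 (adjusted p = 0.0324). Cox8c, an isoform known from testis, was the single structural gene called higher, by 0.21 ± 0.05 (adjusted p = 0.00604). That rise came from 1 of its 2 probe sets (0.46 against -0.04), and with the probe set whose name marks possible cross-hybridisation left out it turned to -0.04 (adjusted p = 0.705).

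Late minus early compares the first 4 arrays after serum with the last 4, and shares its early arrays with the comparison before. Here 9 of 90 members were called (10%), against 21.0% of all genes. Of the 9, 6 were higher and 3 lower, against 11.7% and 9.29% of all genes. After quantile normalization the split was 4 and 4, and with each array centred it was 5 and 4. Structural genes gave 3 higher and 3 lower, that is 6 of 82 (7.32%), with a median of 0.07 against 0.02 for all genes. Of the 82, 57 were positive (69.5%), against 56% of all genes. The medians of the complexes were all positive, at 0.06 in I, 0.13 in II, 0.07 in III, 0.07 in IV and 0.06 in V. All 4 late arrays lay above all 4 early ones for 8 of 82 structural genes, against 14.1% of all genes, and below them for 4, against 11.1%. Without the 1.0 h or the 6.0 h array 5 members were called.

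**Figure D2:**
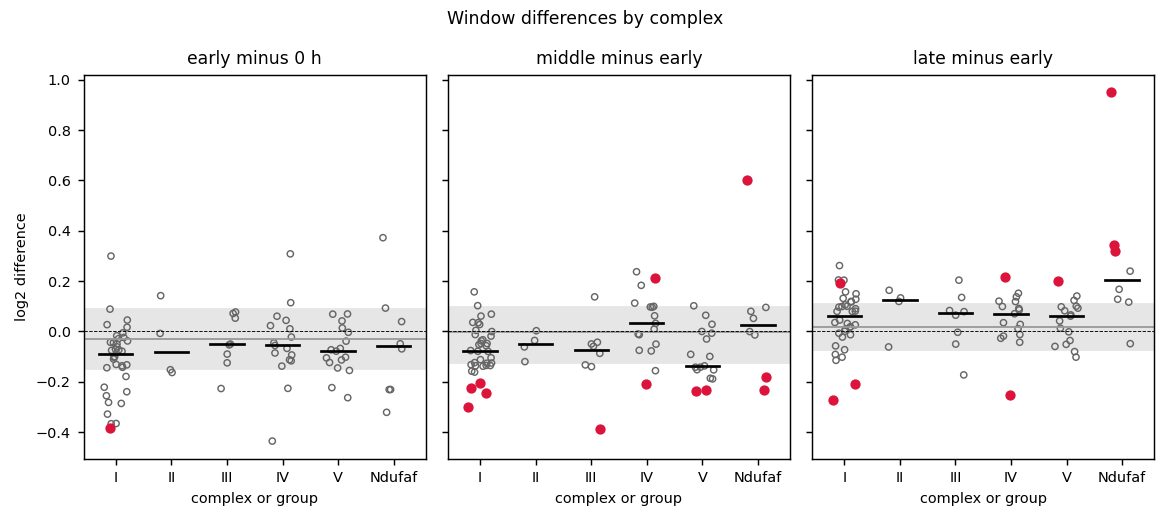
Difference in log2 ratio between windows for each gene (circles), by complex and for the Ndufaf assembly factors; filled red circles were called, black bars are group medians, and the grey band and line give the middle range and median of all 18193 genes. Late minus early, the subunit medians lie between 0.06 and 0.13 in every complex, and that of the assembly factors at 0.20.

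The 3 subunits called lower were Ndufa6, Cox7a2l and Ndufv3. Ndufa6 stayed low, at 0, 0.07, -0.22 and 0.04 on the late arrays, below all 4 early ones, and fell by 0.27 ± 0.06 (adjusted p = 0.00687, 1.21-fold). Cox7a2l, a paralogue of subunit 7a that promotes the joining of complexes III and IV into supercomplexes, stood at 0.01, 0.14, 0.26 and 0.08 early and at -0.19, -0.14, -0.17 and -0.0024 late. It was at 0.26 at 0 h, and its late values lay below every early one, with a fall of 0.25 ± 0.06 (adjusted p = 0.0117). Ndufv3, an accessory subunit of the arm of complex I that binds NADH, stood at 0.03, 0.09, 0.11 and 0.02 early and at -0.07, 0, -0.30 and -0.20 late. It fell by 0.21 ± 0.06 (adjusted p = 0.0282). The Ndufa6 and Cox7a2l calls remained in all 21 and all 20 other settings run, and the Ndufv3 call was lost in 6 of 20, among them those without the 1.0, 1.5, 5.5 or 6.0 h array.

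The 3 called higher were Ndufa9, Atp5g1 and Cox7b2. Ndufa9, an accessory subunit at the joint between the arms of complex I, stood at -0.11, -0.06, -0.03 and 0.03 early and at 0.10, 0.06, 0.19 and 0.25 late. Every late value was above every early one, a rise of 0.19 ± 0.06 (adjusted p = 0.0238). Atp5g1, one of the genes for the ring subunit c of ATP synthase, rose by 0.20 ± 0.07 (adjusted p = 0.0411), from -0.25, -0.27, -0.26 and -0.23 early to 0.09, -0.08, -0.15 and -0.08 late. One of its 2 probe sets looked scaled by a common floor, as low signals are, and the call was lost in 12 of 21 settings. Cox7b2, a paralogue of subunit 7b known from testis, rose by 0.22 ± 0.07 (adjusted p = 0.0368), but its only probe set lay below a ratio of 1 on all 13 arrays and also looked floor-scaled, and the call was lost in 8 of 20. The Ndufa9 call was lost in 5 of 21, including without the 0.5, 1.0, 5.5 or 6.0 h array.

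**Figure D3:**
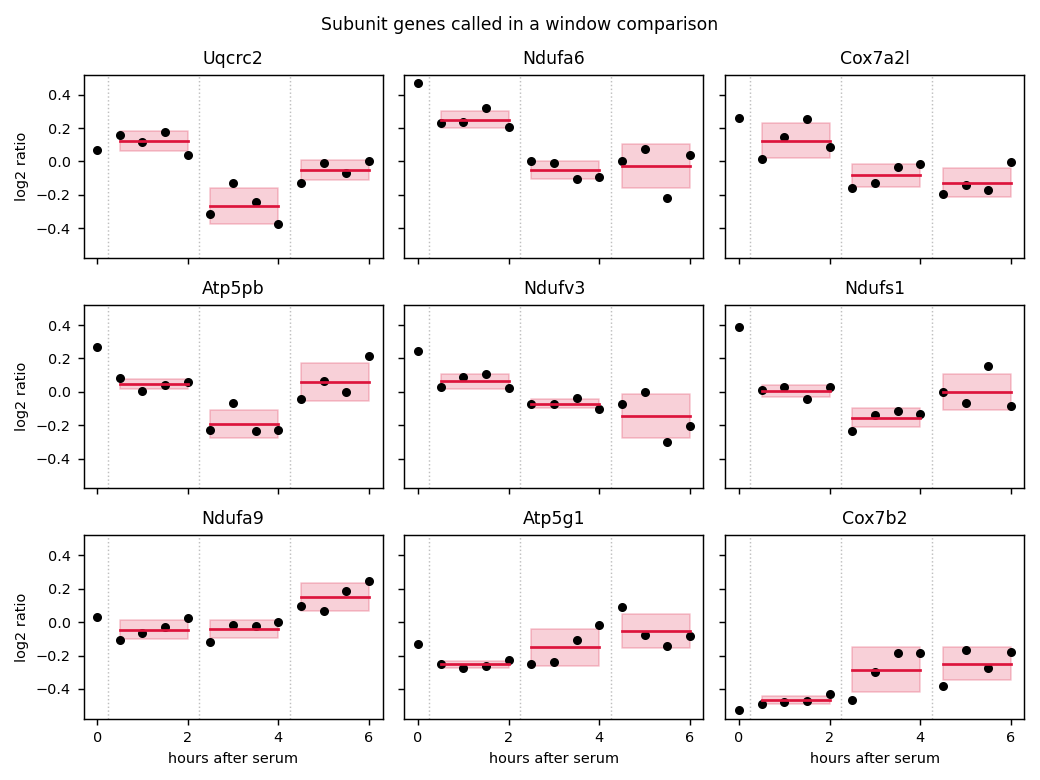
Log2 ratio by hours after serum for 9 called subunits (points, 1 per array), with red lines at each window's mean and red bands of ± 1 SD (n = 4 arrays). Uqcrc2 and Atp5pb are lowest in the middle window, Ndufa6, Cox7a2l and Ndufv3 are lower late than early, and Ndufa9, Atp5g1 and Cox7b2 are higher late.

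Isoforms of the same subunit, which differ in the tissues they are known from, were mostly not called. For the muscle and heart isoforms of complex IV, late minus early was 0.15 ± 0.07 for Cox6a2 (adjusted p = 0.172), -0.01 ± 0.11 for Cox7a1 (adjusted p = 0.96) and 0.14 ± 0.12 for Cox8b (adjusted p = 0.472). Their widely expressed counterparts had -0.02 for Cox6a1, 0.03 for Cox7a2 and 0.07 for Cox8a, none called. None of the 3 muscle isoforms was called in any window comparison. Of 8 differentiated muscle markers, 7 were called higher late than early, against 11.7% of all genes.

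Cox7a2l, grouped here with Cox7a1 and Cox7a2, was called lower late minus early, as given above. In the other isoform sets, only Atp5g1 was called late minus early. Cox4i1, the common subunit 4, had 0.10, and Cox4i2, its isoform known from lung and low oxygen, 0.09. Cox4i2 stood at -0.34 at 0 h and 0.23 at 0.5 h, then between -0.15 and 0.18, and early minus 0 h was 0.31 ± 0.13 (adjusted p = 0.204). Cox6b1 had 0.03 and its testis isoform Cox6b2 -0.03. Ndufa4 had 0.08 and Ndufa4l2, its paralogue known from low oxygen, -0.10. The 3 genes whose products give the same mature subunit c had 0.20 (Atp5g1, called), -0.05 (Atp5g2) and 0.10 (Atp5g3, adjusted p = 0.218).

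The Ndufaf assembly factors had a wider range. Late minus early, 3 of 8 were called, all higher (37.5%, against 11.7% of all genes called higher). Their median was 0.20, and 7 of 8 were positive, against 56% of all genes. For 5 of 8, all late arrays lay above all early ones, against 14.1% of all genes. The median difference stayed between 0.18 and 0.26 in the 21 other settings run, and that of the structural genes between 0.03 and 0.09. No test of the difference between these lists was made, since members of a list are not replicates. On the arrays, the assembly factors' median was -0.24 at 0.5 h, -0.13 at 2.0 h and -0.23 at 2.5 h. It was 0.09, 0.10, 0.0065 and 0.15 on the late arrays, where 8, 7, 5 and 7 of the 8 lay above 0. Of all 18193 genes, 8533, 8100, 8386 and 9074 lay above 0 on these late arrays.

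Ndufaf4, which acts with Ndufaf3 early in the building of complex I, stood at -1.06 at 0 h and at -1.06, -0.80, -0.57 and -0.32 on the early arrays. The middle values were -0.26, -0.03, -0.06 and 0, and the late ones 0.38, 0.23, 0.23 and 0.22. It rose without overlap from window to window. Relative to 0 h it was 1.00-fold at 0.5 h, 1.67-fold at 2.0 h, 2.08-fold at 4.0 h and 2.70-fold at 4.5 h, its highest. Middle minus early was 0.60 ± 0.12 (adjusted p = 0.00312) and late minus early 0.95 ± 0.12 (adjusted p = 8.21e-05), a 1.93-fold rise that ranked 69 of 18193 genes. Both probe sets rose late minus early, by 0.77 and 1.14, and the late call remained in all 21 settings, at 0.83 to 1.14.

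Ndufaf6, also needed early in complex I assembly, stood at -0.24, 0, -0.21 and -0.18 early, at -0.28, -0.21, -0.22 and 0.09 in the middle window, and at 0.20, 0.09, 0.23 and 0.23 late. All 4 late values lay above the early ones, and late minus early was a rise of 0.35 ± 0.08 (adjusted p = 0.00632). Ndufaf2, a paralogue of Ndufa12 that acts late in assembly, stood at -0.31, -0.22, -0.09 and -0.09 early and at 0.24, 0.15, -0.02 and 0.19 late, without overlap, and rose by 0.32 ± 0.08 (adjusted p = 0.0107). Its 0 h value was 0.14, within the range of the late ones.

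The other 5 were not called late minus early. Ndufaf5, which modifies a core subunit, had 0.24 ± 0.09 (adjusted p = 0.0682), Ndufaf7, a methyltransferase acting on another, 0.17 ± 0.07 (adjusted p = 0.102), and Ndufaf8, the partner of Ndufaf5, 0.13 ± 0.07 (adjusted p = 0.262). Ndufaf1 and Ndufaf3 behaved otherwise in the middle window. Ndufaf1, which acts on the membrane arm of complex I, stood at 0.03, 0, -0.08 and -0.17 early and at -0.45, -0.27, -0.24 and -0.19 in the middle, and fell by 0.23 ± 0.06 (adjusted p = 0.0194). Ndufaf3 fell by 0.18 ± 0.05 (adjusted p = 0.0193) while its partner Ndufaf4 rose. The direction of the Ndufaf median between middle and early (0.03) was not stable, from -0.01 to 0.06 over the settings.

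**Figure D4:**
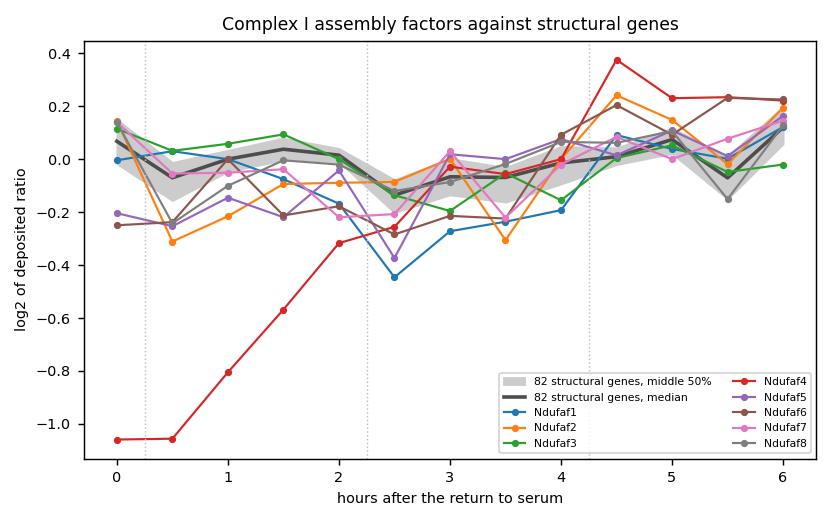
Log2 ratio of the 8 Ndufaf assembly factors (coloured lines) by hours after serum, with the median of the 82 structural genes (dark line) and their middle 50% (grey band); dotted lines part the windows. Ndufaf4 rises from -1.06 at 0 h to 0.22 at 6.0 h, and Ndufaf1 dips to -0.45 at 2.5 h. All 8 lie above 0 at 4.5 h, against 8533 of all 18193 genes.

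Assembly factors outside the Ndufaf name are read here against the 21.0% of all genes called late minus early, 11.7% higher and 9.29% lower. For complex I, 6 of 8 were called (75%), with Foxred1 (0.36), Ecsit (0.35), Tmem186 (0.33), Tmem126b (0.30) and Acad9 (0.26) higher. Nubpl, which delivers iron-sulphur clusters to complex I, was the one lower (-0.40). Set beside the single 0 h value, the late mean was higher for Foxred1, Ecsit and Acad9. It was lower for Tmem186 (0.04 against 0.15 at 0 h) and Tmem126b (0.15 against 0.24). Tmem186 was also lower early than at 0 h (-0.44 ± 0.08, adjusted p = 0.012). Of 4 factors of complex II, 2 were called (50%): Sdhaf1 rose by 0.70 ± 0.10 (adjusted p = 1.49e-04) and Sdhaf4 fell by 0.18 ± 0.06 (adjusted p = 0.0483), whereas none of the 4 Sdh subunits was called.

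Of 8 partners and factors of complex III, 4 were called (50%): Cycs, the electron carrier cytochrome c (0.32), Cyc1, the cytochrome subunit whose symbol the rule does not take in (0.25), and Uqcc1 (0.18) rose, and Ttc19 fell by 0.26. For complex IV 17 of 21 listed factors were measured, and 8 were called (47.1%), all higher. They were the copper carriers Sco2 (0.87) and Sco1 (0.34), the membrane insertase Cox18 (0.52), the haem A enzymes Cox10 (0.38) and Cox15 (0.25), Coa7 (0.38), Coa6 (0.30) and Lrpprc (0.29), which protects mitochondrial mRNA. Among them, only Coa6 had a late mean (0.17) below its 0 h value (0.25). For complex V, Atpaf1 (0.18) and Atpaf2 (0.23), which help to assemble the catalytic head, rose among 4 measured of 5 listed symbols (50%).

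Among 17 regulators of mitochondrial biogenesis, late minus early called 3 higher and 0 lower (17.6%, against 21.0% of all genes), a share not above the background: the mitochondrial DNA helicase Twnk (0.52), the DNA-packaging factor Tfam (0.28) and the mitochondrial RNA polymerase Polrmt (0.20). Middle minus early called 4 (23.5%, against 22.2% of all genes), near the background: Esrra (0.23) and Twnk (0.21) higher and Gabpa (-0.31) and Ppargc1a (-0.17) lower. Nrf1 was not called in any window comparison.

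Other mitochondrial and ribosomal genes, given for scale, had late minus early medians of 0.18 for 76 mitochondrial ribosomal proteins (38 higher, 0 lower, 50%), 0.18 for 23 import genes named Timm or Tomm (12 higher, 0 lower, 52.2%) and 0.07 for 46 cytosolic ribosomal proteins (3 higher, 0 lower, 6.52%). The structural subunits, at 0.07 with 3 higher and 3 lower of 82, lay near the cytosolic ribosomal proteins on this measure. The differences between lists were not tested. The differentiated muscle markers and the 18S control moved in the same late window, and their part in these counts was not tested.

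**Figure D5:**
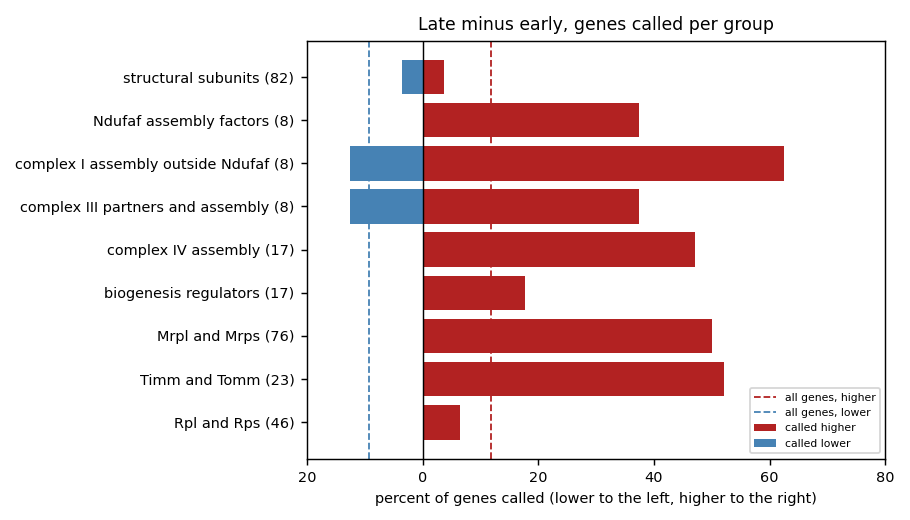
Percentage of genes called higher and lower late minus early in the lists shown, with the shares over all 18193 genes as dashed lines. Lists of 4 genes, the cell type markers, the separate complexes and the list of all 90 members are left out. Structural subunits stand at 7.32% in all, the Ndufaf factors at 37.5%, the mitochondrial ribosomal proteins at 50% and the import genes at 52.2%.

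A test of any smooth course over the 13 arrays called 23 of 90 members (25.6%), against 38.0% of all genes. They were 19 of 82 structural genes (23.2%) and 4 of 8 assembly factors, Ndufaf4 (adjusted p = 2.80e-07), Ndufaf6 (adjusted p = 7.77e-04), Ndufaf1 (adjusted p = 0.00303) and Ndufaf5 (adjusted p = 0.0446). The range from the lowest to the highest array had a median of 0.40 (log2) over structural genes, 0.53 over assembly factors and 0.45 over all genes. Ndufb1, a small accessory subunit of complex I, had the widest range of the structural genes, from -0.36 at 0 h to 0.55 at 6.0 h (1.88-fold; adjusted p = 0.0023). Sdhd, a membrane anchor of complex II, ran from -0.16 at 3.5 h to 0.38 at 6.0 h (adjusted p = 0.00501) and lost its call without the 6.0 h array. Atp5b, the catalytic subunit of ATP synthase, dipped to -0.19 at 4.0 h and reached 0.19 at 5.5 h (adjusted p = 0.00898). Ndufs3 had its highest value, 0.43, at 0 h (adjusted p = 0.00904) and lost its call without that array. Leaving out the 1.5 h array gave 15 called members in place of 23.

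The study's own question, oscillation, was tested with a period of 2 h over a smooth trend. With limma 0 of 90 members and 0.00% of all genes were called, and the smallest adjusted p of any gene was 0.998. At an unadjusted p under 0.05 there were Cox7a2l and Ndufb4, 2.22% of the members, against 3.96% of all genes. The absence of calls does not show that the genes were steady.

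The 5 genes outside the rule whose courses were most like the median of the structural genes, by Pearson r over the 13 arrays, were Glrx2 (0.95), Elob (0.94), Chchd1 (0.94), Srp14 (0.93) and Mrps24 (0.92). The points share the same libraries, and the r values describe likeness only.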

How the data were processed

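The labels describe biotin-labelled cRNA of 13 C2C12 samples on Affymetrix mouse arrays, and RMA, without a version, is the tool named in the submitters' processing notes. The authors deposited linear ratios to a reference per probe set. The sources used here do not give how that reference was formed, and such ratios compress dim transcripts to an unknown degree. The 64 array controls were left out. Gene values are means of log2 ratios over single-gene probe sets, 2 or more for 51 members and 1 for 39; the platform's gene identifiers of all 90 were found in the RefSeq gene table, with 0 symbols changed. Of the members' probe sets, 5 looked divided by a common floor and 4 lay below 1 on all arrays.

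All arrays entered 1 fit of the window means with limma 3.58.1 (lmFit, eBayes and two-sided tests on 9 residual degrees of freedom) in R 4.3.3, with Benjamini-Hochberg adjustment over 18193 genes and a threshold of 0.05. The smooth course was a natural cubic spline of 4 degrees of freedom. The oscillation was a cosine and a sine of period 2 h over a spline trend of 3. The models were tested on simulated data. Array dates were not used here, so no batch was tested. Members named were every called one, or the 5 largest rises and falls (10 smallest p for the course) above 10 calls, all Ndufaf genes and the isoform sets. The 2 largest changes per complex were also picked, but not all are printed. Atp5l, Sdha, Sdhb, Uqcr10, Uqcrfs1 and Uqcrh were picked so and have no other value in this text. None of them was called in a window comparison. Uqcr10 had the largest late minus early change of complex III, at 0.20 (log2). The members, lists, motifs and markers were chosen with earlier results of these data known. Alternatives covered scaling, probe set choice, variance model, windows, spline, period and leaving out each array.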

Additional observations from a re-analysis of the deposited data

Results flagged for a closer look

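In the windows of 4 arrays, 9 of 141 sets of values (3 windows for each of 47 named members) had 1 array further from the other 3 than Dixon's critical value allows, and chance gives about 1 in 20. In the early window these were Atp5b at 1.0 h (0.0342, others 0 to 0.0058), Atp5g3 at 0.5 h (-0.1568, others -0.0425 to -0.0262), Cox6b2 at 1.5 h (-0.4074, others -0.0101 to 0.0621) and Ndufaf7 at 2.0 h (-0.2193, others -0.0544 to -0.038). In the middle window they were Atp5pb at 3.0 h (-0.0652, others -0.2373 to -0.2294) and Ndufaf5 at 2.5 h (-0.3733, others 0 to 0.0759). In the late window they were Ndufa4 at 5.5 h (-0.0831, others 0.1427 to 0.1557), Ndufaf4 at 4.5 h (0.3755, others 0.2212 to 0.234) and Sdhc at 6.0 h (0.2733, others 0.0157 to 0.0564). All are log2 ratios, and the windows hold different time points, so a value apart from the others can belong to the course of a gene.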

How the results depend on the processing

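The number of members called was 1 (early minus 0 h), 12 (middle minus early), 9 (late minus early), 23 (smooth course) and 0 (oscillation). Quantile normalization gave 0, 7 and 13 for early minus 0 h, middle minus early and the course. Without probe sets of the _x_at, _s_at and _a_at kinds these were 0, 6 and 13. Early minus 0 h also had 0 with 1 probe set per gene, with single probe sets, with early set to 0.5 to 1.5 h and with only the windows compared in the fit, and a straight line in time called 12 for the course. The cause was not tested. With 1 array left out, the counts ran from 0 to 2, 6 to 15, 5 to 10, 15 to 26 and 0 to 0. The value that turned was Cox8c, middle minus early, at -0.0392 (adjusted p = 0.705) without those probe set kinds. Of 22 window calls 9 were kept in every setting run, and of 23 course calls 4. No paired analysis was possible because the labels carry no replicate numbers. The single array per time point limits precision, and ratios without levels allowed no filter on dim probe sets.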

Other observations

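Of the 10 probe sets that name a member together with a second gene, and that entered no member value, 2 passed the threshold in a window comparison. For scale, early minus 0 h called 3.26% of all genes, middle minus early 22.2% and late minus early 21.0%. These are shares of gene values, and the share over all probe sets is not given here. The probe set for Ndufa11b or Ndufa11 that stood at 0.54 at 0 h lay between -0.35 and 0.02 on the early arrays, a fall of 0.70 ± 0.15 (SE, log2; limma adjusted p = 0.0236), while the second probe set for the same pair differed by -0.18 ± 0.13 (adjusted p = 0.488). The probe set for Ndufab1, the acyl carrier protein that is also a subunit of complex I, or its pseudogene fell by 0.29 ± 0.09 between early and middle (adjusted p = 0.0405) and had 0.46 at 6.0 h. Which of the named genes gave the signal cannot be told apart.

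Probe sets of a member differed most for Ndufab1, by 0.78 (log2) in early minus 0 h and 0.44 in late minus early. Of the 51 members with several probe sets, all had the same sign in 26 for early minus 0 h, in 31 for middle minus early and in 34 for late minus early.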
